A study of Homo sapiens with 12 samples.

Results

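The proteasome genes were taken by name. Every row of the authors' deposited tables whose gene name begins with PSMA, PSMB, PSMC, PSMD, PSME, PSMF or PSMG followed by a digit was kept. This gave 51 gene names of 16417 in the 4 tables, with 711 windows in all, 207 and 148 in the tables of guide sgMETTL16-1 (replicates 1 and 2) and 196 and 160 in those of sgMETTL16-2. Whole tables held 79372, 71406, 75788 and 70002 windows. Of the 51 names, 45 encode proteasome subunits, activators, an inhibitor or assembly factors. The other 6 match by name alone: the antisense RNAs PSMA3-AS1, PSMB8-AS1, PSMD5-AS1, PSMD6-AS2 and PSMG3-AS1, and PSMC3IP, a factor of meiotic recombination. PSMA8, PSMB9 and PSMB11 have no row in the tables used here, and PSMA4 has none in the replicate 2 table of sgMETTL16-1. The other 50 names were listed in every table. All 51 names are called proteasome genes below for short, so the counts include the 6 that match by name alone.

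The cells were NOMO-1, a human acute myeloid leukaemia line, infected with lentivirus carrying sgMETTL16-1 or sgMETTL16-2, guides against the RNA methyltransferase METTL16, or the negative control guide sgNS. All groups were grown under puromycin to keep infected cells, and the labels name no clones. Polyadenylated RNA was sequenced as input and after immunoprecipitation (IP) with an antibody against N6-methyladenosine (m6A), with 2 libraries per guide and kind and 12 in all. The series asks which m6A sites depend on METTL16. Each of the authors' 4 deposited tables sets 1 knockout guide against sgNS under 1 replicate number, so the tables share a control guide, and the 2 tables of a guide are its only repeats. The labels do not say that replicate numbers stand for separate cultures, and the tables give no replicate error for any value. Read depth per library is unknown. All 8 myeloid markers looked for, among them SPI1, MPO and LYZ, had windows in all 4 tables, whereas CD3E and MS4A1 of lymphocytes and HBB and HBA1 of red cells had none. CD79A and KLF1, also markers of those lineages, were listed. The tables hold no RNA level, so they do not check the knockout of METTL16.

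The proteasome degrades proteins tagged with ubiquitin. Its 20S core is a barrel of alpha rings (PSMA genes), which gate entry, around beta rings (PSMB genes), some of which carry the proteolytic sites. The 19S cap recognises, unfolds and deubiquitinates substrates with a base of ATPases (PSMC genes) and scaffold subunits and a lid (PSMD genes), and other caps (PSME genes) activate the core without ATP. Blood cells also make immunoproteasome beta subunits that shape peptides for antigen presentation. Most m6A in messenger RNA is laid down by METTL3 with METTL14 in long internal exons and near stop codons, whereas METTL16 is known for a structured hairpin motif in few RNAs.

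A window is enriched when the authors' false discovery rate (FDR) of IP over input is under 0.05, and called when their FDR of the difference between knockout and sgNS is under 0.05. The log2 fold change is that of the difference. Its sign is not explained in the tables, and values under 0 are taken here to mean less m6A in knockout cells, as software with such column headers usually writes it; under the other reading every direction given here would turn. Values of 4 tables are given in the order sgMETTL16-1 replicates 1 and 2, then sgMETTL16-2 replicates 1 and 2. Positions are on GRCh38, counted from 1, and distances to gene ends include introns. A region is the span of windows of 1 gene that share bases across tables. Of 243 regions on proteasome genes, 80 were listed in all 4 tables and 55 in 1 table only.

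Windows over the annotated first transcribed base were found for 20 of the 51 genes, and 11 of these starts lay under an enriched window in at least 1 table. Start sequences are shown for the 5 genes whose first base lay under an enriched window in at least 2 tables, because the m6A antibody also binds m6Am, the methylated adenosine next to the cap. Each runs 5′ to 3′ from 10 bases before the start over 30 bases in all, and the capital marks the annotated first transcribed base. The sequences are from RefSeq (GRCh38.p14), which matched 44 of the 51 names, and lie at chr3:184299231-184299260 for PSMD2, chr17:39980797-39980826 for PSMD3, chr1:151399563-151399592 for PSMB4, chr7:103347633-103347662 for PSMC2 and chr19:39971155-39971184 for PSMC4, all on the plus strand.
PSMD2: gggtgcgcgcGcagcgggccggcagtggcg
PSMD3: ggcgtttcccAgaaggcccagcgccgggaa
PSMB4: cattttttctGctaccgtgactaagatgga
PSMC2: agggaaagggAagacaccaccggaagcaag
PSMC4: aagcggtgacAgatcatcccaggccacaca
The annotated first base was A in PSMD3, PSMC2 and PSMC4 and G in PSMD2 and PSMB4. Over the 20 starts under a window it was A in 10, against 42.6% of the 54 annotated starts of these genes and 44.4% of 35116 RefSeq starts. The letters GGAC, the core most often methylated by METTL3, were searched on the transcript strand in the first 50 bases. They were found in 6 of the 20 starts, against 20.4% of the starts of these genes and 18.9% of all starts. PSMD2 and PSMB4 hold GGAC there, and PSMD3, PSMC2 and PSMC4 do not. A transcript may start at another base than the annotated one, and these files cannot tell m6Am from m6A.

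More of the proteasome genes than of all listed genes had an enriched window in at least 1 table, but the enrichment was shallow and seldom found in every table. RNA level and depth are unknown, so these shares were not adjusted for them. By the authors' deposited values, 39 of the 51 genes (76.5%) had an enriched window in at least 1 table, against 44.5% of all genes. In every table, by contrast, 8 genes (15.7%) had one, against 19.3% of all genes. Enriched windows numbered 33 (15.9%), 26 (17.6%), 38 (19.4%) and 27 (16.9%) in the authors' deposited tables, against 8.10%, 11.9%, 10.2% and 12.3% of all windows. The 95% exact binomial intervals of these shares were 11.2 to 21.7%, 11.8 to 24.7%, 14.1 to 25.6% and 11.4 to 23.6%, and cover counting error only, since windows of 1 gene share its RNA. The whole-table share lies below the interval in the replicate 1 tables and within it in the sgMETTL16-2 replicate 2 table, and just above its lower bound in the other. The median fold enrichment of the enriched windows was 1.61, 1.70, 1.63 and 1.71 in the authors' deposited tables, below the 1.78, 1.92, 1.88 and 1.89 of all enriched windows. They were also shorter, with medians of 267, 270, 283 and 270 bases against 417, 388, 390 and 388. The 12 names never enriched were PSMA5, PSMB1, PSMB2, PSMB6, PSMC1, PSMC5, PSMC6, PSME2, PSMG2, PSMG4, PSMC3IP and PSMD6-AS2.

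Enrichment in all 4 tables was found for 11 regions on 8 genes: 3 on PSMD2, 2 on PSMD4 and 1 each on PSMD7, PSME1, PSME4, PSMD5, PSMG3 and PSMB8-AS1. The scaffold subunit PSMD2 and the ubiquitin receptor PSMD4 belong to the 19S base, and no subunit of the 20S core is among the 8. Fold enrichment of the PSMD7 region (chromosome 16, 74304351 to 74305901) was 1.63, 1.58, 1.71 and 1.52 in the authors' deposited tables, with an FDR of IP over input as low as 1.58e-20. The 3′ region of PSMD4 (chromosome 1, 151266086 to 151267478) had a fold enrichment of 1.71, 3.38, 1.73 and 2.07 in the authors' deposited tables. These 2 regions differ in spread, since the PSMD7 values lie close together while the PSMD4 value of 1 table stands above its other 3. Taking the enriched windows of each region, log2 fold changes had mixed signs in 8 of the 11 regions, lay below 0 in every one of the authors' deposited tables for 2, on PSMD5 and PSMB8-AS1, and above 0 in each for 1, the 5′ region of PSMD2. With the windows that were not enriched, 10 of the 11 regions were mixed.

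**Figure D1:**
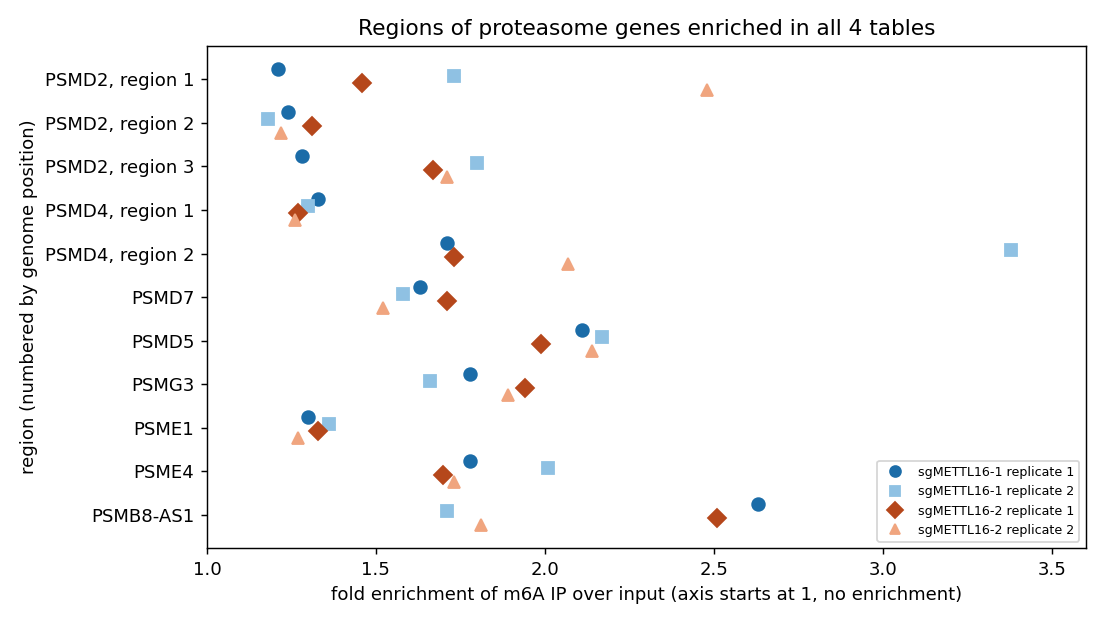
Fold enrichment of m6A IP over input (x axis, a ratio starting at 1) in the authors' deposited tables for the 11 regions of proteasome genes enriched in all 4 tables, 1 row per region and 1 symbol per table, regions of 1 gene numbered by position. Most values lie under 2, and PSMD4 region 2 (the 3′ region) reaches 3.38 in the replicate 2 table of sgMETTL16-1.

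Few proteasome windows were called, and none was called in both tables of a guide. In the authors' deposited tables of sgMETTL16-1, replicate 1 had 3 windows called lower (1.45% against 0.281% of all windows) and 0 higher (against 0.0743%), and replicate 2 had 0 lower (against 0.167%) and 2 higher (1.35% against 0.583%). In those of sgMETTL16-2, replicate 1 had 7 lower (3.57% against 0.965%) and 1 higher (0.510% against 0.875%), and replicate 2 had 1 lower (0.625% against 0.149%) and 1 higher (0.625% against 0.586%). The share called lower was thus above the background in 3 tables, and the share called higher was near or below it in all but the sgMETTL16-1 replicate 2 table. Of the 11 lower calls, 6 lay in enriched windows, as did all 4 higher calls. In sgMETTL16-2 replicate 2 the lower share rests on 1 window, which was not enriched. These counts are small, and no test was run over the list.

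Counted by gene, the calls named 11 genes. Lower were PSMA3, PSMA4 and PSMD6 in sgMETTL16-1 replicate 1 (5.88% of the listed proteasome genes against 1.39% of all genes), none in its replicate 2 (against 0.760%), PSMA2, PSMA3, PSMA4, PSMA5, PSMB4 and PSMB8-AS1 in sgMETTL16-2 replicate 1 (11.8% against 4.17%) and PSMA7 in its replicate 2 (1.96% against 0.682%). Higher were none in sgMETTL16-1 replicate 1 (against 0.368%), PSMD3 and PSME1 in its replicate 2 (2 of 50 against 2.51%), PSMD2 in sgMETTL16-2 replicate 1 (1.96% against 3.66%) and PSME1 in its replicate 2 (1.96% against 2.52%). By replicate number, 10 of the 11 lower calls came from the replicate 1 tables, PSMA3 and PSMA4 were called in both of these, and PSME1 in both replicate 2 tables. Which sgNS libraries entered each table is not stated in the sources used here, so tables may share them.

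Windows of the 2 tables of a guide could be matched at 66 sites of these genes for sgMETTL16-1 and 64 for sgMETTL16-2. With sgMETTL16-1, 0 were called lower in both (against 0.0449% of all matched windows) and 0 higher (against 0.0200%). With sgMETTL16-2, 0 were lower in both (against 0.0613%) and 0 higher (against 0.529%), and none was called in opposite directions with either guide. At background shares this low, 0 of so few windows does not set the proteasome genes apart.

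**Figure D2:**
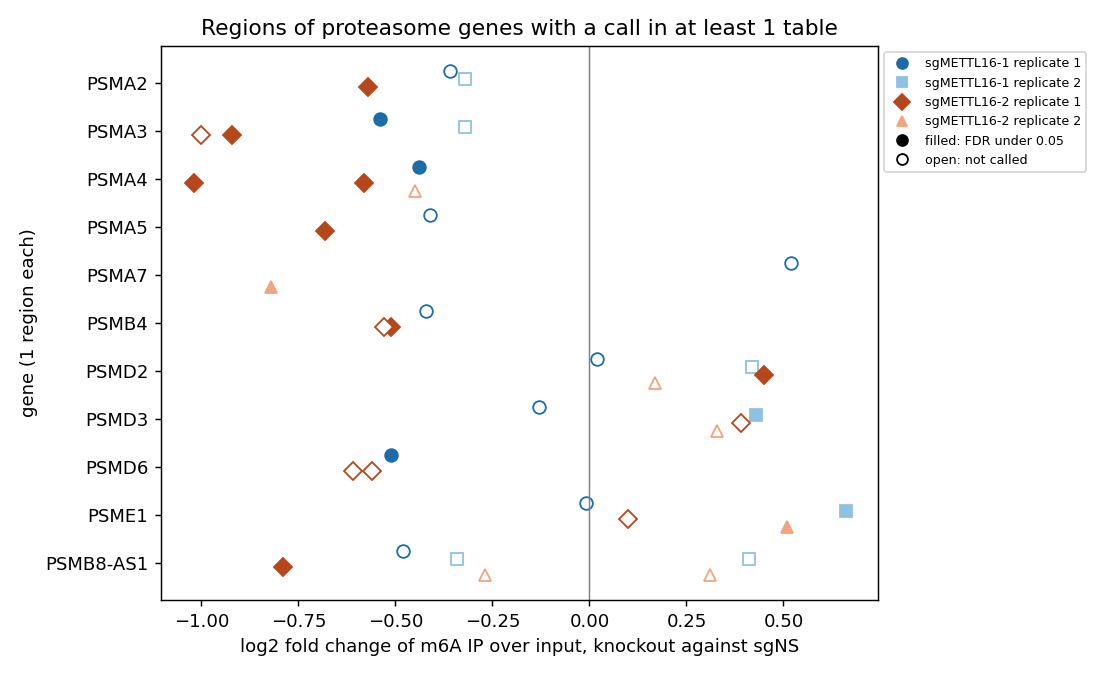
Log2 fold change of m6A IP over input in knockout against sgNS (x axis) for the 11 regions with a call in at least 1 of the authors' deposited tables, 1 row per gene; filled symbols are called, open ones are not, and several symbols of 1 kind are several windows. All called windows of PSMA, PSMB4, PSMD6 and PSMB8-AS1 lie below 0, and those of PSMD2, PSMD3 and PSME1 above it.

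The alpha ring held 8 of the 11 lower calls, on 5 of its 7 listed genes when the 4 tables are pooled. The pooled share over all genes was not computed, and in any 1 table at most 4.17% of all genes were called lower. By table the alpha ring calls were 2 of 21 windows (9.52% against 0.281% of all windows), 0 of 10 (against 0.167%), 5 of 25 (against 0.965%) and 1 of 12 (8.33% against 0.149%), on few genes with several windows each. The called windows of PSMA5, of PSMA7 and, with sgMETTL16-2, of PSMA3 were not enriched. PSMA4 had the smallest FDR of all proteasome calls, in a region on chromosome 15 (78545704 to 78549221, plus strand). With sgMETTL16-1 the authors' deposited table of replicate 1 gave -0.44 (FDR = 2.09e-09, fold enrichment 2.04) for a window of 617 bases in 3 blocks, and that of replicate 2 lists no window. With sgMETTL16-2 the authors' deposited table of replicate 1 gave -0.58 (FDR = 0.0178) and -1.02 (FDR = 1.58e-29) for 2 windows, and that of replicate 2 gave -0.45 (FDR = 0.453) for a window with a fold enrichment of 1.05. PSMA4 was thus called lower in both replicate 1 tables and was missing or not called in the replicate 2 tables.

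PSMA3 was called at its 3′ end (chromosome 14, 58263728 to 58272009) in the same 2 tables. The authors' deposited tables gave -0.54 (FDR = 0.0417) with sgMETTL16-1 in replicate 1 and -0.32 (FDR = 0.659) in replicate 2, the latter for a window of 60 bases. For sgMETTL16-2 in replicate 1 the authors' deposited table gave -0.92 (FDR = 1.15e-04) for a window of 206 bases that was not itself enriched, beside a second one at -1.0 (FDR = 0.473). All 4 values lie below 0, the replicate 2 table of sgMETTL16-2 lists no window there, and the call with sgMETTL16-1 was lost with a two-sided p (FDR = 0.109). PSMA3-AS1, transcribed from the opposite strand, has windows in this stretch that share no base with those of PSMA3.

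PSMA2, PSMA5 and PSMA7 were each called lower once. The 3′ region of PSMA2 (chromosome 7, 42917160 to 42921897, minus strand) was at -0.36 (FDR = 0.251), -0.32 (FDR = 0.658) and -0.57 (FDR = 0.00129) in the authors' deposited tables, and the sgMETTL16-2 replicate 2 table lists none. Its called window had a fold enrichment of 4.05, the highest of any called proteasome window. PSMA5 (chromosome 1, 109411893 to 109415287) was listed in the authors' deposited tables of replicate 1 alone, at -0.41 (FDR = 0.309) with sgMETTL16-1 and -0.68 (FDR = 0.0151) with sgMETTL16-2, and enriched in neither. PSMA7 went both ways in 1 region (chromosome 20, 62139140 to 62139871). The authors' deposited tables gave 0.52 (FDR = 0.0741) for an enriched window with sgMETTL16-1 in replicate 1 and -0.82 (FDR = 0.0123) for a window of 60 bases, not enriched, with sgMETTL16-2 in replicate 2. A second PSMA7 region, at 62136727 to 62137406 and enriched in 3 tables, was at -0.26, 0.19, -0.38 and 0.22 and was not called. Over all alpha ring windows the median log2 fold change was -0.26, -0.37, -0.54 and -0.09 in the authors' deposited tables, with 15 of 21, 8 of 10, 22 of 25 and 6 of 12 below 0, while the median over all windows of each table was 0.00. Most of these windows were not enriched. The 6, 2, 4 and 1 enriched ones had medians of -0.31, -0.07, -0.58 and 0.09. Over all enriched windows the medians were -0.04, 0.13, 0.12 and 0.14. Other classes leaned below 0 in some tables too, with 19 of 23 assembly chaperone windows in sgMETTL16-1 replicate 1. The same held for 20 of 24 beta ring windows in sgMETTL16-2 replicate 1. In sgMETTL16-2 replicate 2 the counts of these 2 classes were 8 of 16 and 6 of 18.

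Among the constitutive beta subunits, PSMB4 was called lower in 1 table. Near its 3′ end (chromosome 1, 151401326 to 151401936) the authors' deposited tables of replicate 1 gave -0.42 (FDR = 0.0513) with sgMETTL16-1, and -0.51 (FDR = 0.0437) and -0.53 (FDR = 0.148) with sgMETTL16-2. The called window of 60 bases had a fold enrichment of 1.02 and was no longer called with a two-sided p (FDR = 0.117), whereas its uncalled neighbour was enriched at 1.99. Over the PSMB4 start shown above (151399565 to 151400086), the values in the authors' deposited tables were -0.25, 0.24, -0.20 and 0.47, below 0 in replicate 1 and above 0 in replicate 2, with no call. PSMB5, the chymotrypsin-like active subunit, had a region at its 3′ end (chromosome 14, 23025851 to 23026204) at 0.03, -0.31, -0.10 and -0.31 in the authors' deposited tables. PSMB7, the trypsin-like subunit, lay at -0.07, -0.62, -0.19 and -0.47 in a region enriched in the replicate 1 tables (chromosome 9, 124384648 to 124414866). Its other region listed in all 4 of the authors' deposited tables (124353465 to 124353674) was at -0.01, 0.20, 0.03 and 0.35 and was enriched in 1. PSMB6, the caspase-like subunit, had no enriched window, and its window matched in all 4 tables was at -0.29, 0.53, -0.24 and 0.21 in the authors' deposited tables. No window of these 3 catalytic subunits was called, which does not set them apart at the low shares called over all windows.

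The immunoproteasome was listed through PSMB8 and PSMB10, with 5 or 6 windows per table and no call. At most 0.965% of all windows were called lower and 0.875% higher in any table. No call in so few windows thus does not set these genes apart. The 3′ region of PSMB8 (chromosome 6, 32840717 to 32841648, minus strand) had log2 fold changes of -0.03, 0.08, 0.01 and 0.11 in the authors' deposited tables and was enriched in 3 of them; a second window of sgMETTL16-1 replicate 1 there was at -0.19. PSMB10 was at -0.18, -0.04, 0.02 and 0.01 in its window matched in all 4 tables (chromosome 16, 67934504 to 67934622 in the first), which was enriched in none. Toward the 5′ end PSMB10 (67936259 to 67936877) was at 0.20, 0.28, 0.41 and 0.35 in the authors' deposited tables, above 0 in all 4 with FDRs of 0.564 or more, and was enriched in the last alone, at a fold enrichment of 2.02. A region of PSMB8 near its start (32844338 to 32844786), never enriched, spread widely, at 0.70, then 0.37 and -1.32, then 1.26, then 0.27 and -1.17 in the authors' deposited tables. The 3′ values of both genes thus lie nearer to 0 than those toward the 5′ end, and the tables give no error from which an interval could be set.

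The 6 ATPases of the 19S base had no call in 22, 22, 22 and 17 windows. Of all windows, 0.281%, 0.167%, 0.965% and 0.149% were called lower and 0.0743%, 0.583%, 0.875% and 0.586% higher. At such shares, no call in so few windows does not set the ATPases apart. PSMC3 was enriched in 3 tables at both of its main regions, and at 47424624 to 47426294 on chromosome 11 the authors' deposited tables gave -0.24, 0.12, -0.03 and 0.03. PSMC4, in its 5′ region (chromosome 19, 39971125 to 39974544), was at 0.18, 0.04, -0.16 and 0.16 in the authors' deposited tables in the windows with the higher fold enrichment. PSMC2 (chromosome 7, 103347524 to 103355733) was at -0.29, 0.52 and -0.19 and was not listed in the last table. PSMC5 and PSMC6 were never enriched. Their matched windows had values of -0.09, 0.24, 0.03 and 0.36 for PSMC5 and -0.72, 0.61, -0.81 and 0.61 for PSMC6 in the authors' deposited tables. For PSMC6 both replicate 1 values are below 0 and both replicate 2 values above it, with FDRs of 0.376 or more.

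The non-ATPase base subunits were the most often enriched class, with 5 of 12, 5 of 9, 6 of 11 and 5 of 10 windows enriched. PSMD2 was called higher once, at its 5′ end (chromosome 3, 184299188 to 184299907), the region whose start is shown above. The authors' deposited tables gave 0.02 (FDR = 0.655), 0.42 (FDR = 0.0525), 0.45 (FDR = 0.0178) and 0.17 (FDR = 0.650), all above 0. When the median of all enriched windows was subtracted from the table, an alternative with a two-sided p here called the shift, the called value was 0.33 (FDR = 0.412) and no longer called. The other PSMD2 regions, at 184306132 to 184306791 and at 184308874 to 184309054, were not called: the first was at -0.32, 0.27, -0.07 and 0.23 and the second at 0.10, -0.09, 0.14 and -0.11 in the authors' deposited tables. Values of the 3′ region of PSMD4 were -0.31 (FDR = 0.109), 0.29 (FDR = 0.0575), -0.14 (FDR = 0.558) and 0.24 (FDR = 0.193) in the authors' deposited tables, again below 0 in replicate 1 and above 0 in replicate 2. PSMD1, the other large scaffold, had an enriched window in 1 table.

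In the lid, PSMD3 was called higher once and PSMD6 lower once. PSMD3 was measured over its 5′ end (chromosome 17, 39980768 to 39984320), where the authors' deposited tables gave -0.13 (FDR = 0.655), 0.43 (FDR = 0.0170), 0.39 (FDR = 0.0692) and 0.33 (FDR = 0.169). Here the 3 enriched windows lie above 0 and the window that was not enriched lies below it, and the call was lost after the shift (0.29, FDR = 0.819). PSMD6 (chromosome 3, 64018906 to 64023890, minus strand) was at -0.51 (FDR = 6.31e-04) with sgMETTL16-1 and at -0.61 (FDR = 0.0537) and -0.56 (FDR = 0.0603) with sgMETTL16-2 in the authors' deposited tables of replicate 1, and the replicate 2 tables list no window there. Both sgMETTL16-2 windows of PSMD6 were also called lower after the shift (FDR = 0.0278 and FDR = 0.0293). The called PSMD6 window, of 570 bases in 4 blocks, was not enriched (FDR of IP over input 0.0977). The PSMD7 region described above, enriched in all 4 tables, was at -0.22, 0.04, -0.11 and -0.05 in the authors' deposited tables. PSMD8 and PSMD12 held no call: the PSMD8 window at the 3′ end was at -0.05, -0.42, 0.11 and -0.01, and PSMD12 over its first base was at 0.87, 0.70, 0.73 and 0.33 in the authors' deposited tables, with FDRs of 0.518 or more. PSMD11 was at 0.22, -0.17, -1.0 and 0.81 in its window matched in all tables, which was not enriched. Elsewhere PSMD11 had enriched windows at 0.41 and 0.46 in sgMETTL16-1 replicates 1 and 2 and at -0.23 in sgMETTL16-2 replicate 1, none of them called. PSMD14, the deubiquitinase of the lid, had 2 windows per table, of which 1 in all was enriched.

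Among the assembly chaperones, which build the core and the base, no window was called. They had 23, 15, 22 and 16 windows, and at the shares called over all windows this does not set them apart. PSMG3, a chaperone of alpha ring assembly, was enriched in every table at its 3′ end (chromosome 7, 1567334 to 1569175), with log2 fold changes of -0.02, -0.09, 0.12 and 0.15 in the authors' deposited tables. PSMD5 (chromosome 9, 120817669 to 120820972), a chaperone of the base, lay below 0 in each of its enriched windows, at -0.14, -0.51, -0.73 and -0.46 in the authors' deposited tables with FDRs of 0.228 or more. A further PSMD5 window there, not enriched, was at 2.26 (FDR = 0.468) in replicate 2 of sgMETTL16-1, and of its other regions in all 4 of the authors' deposited tables, neither enriched, 120816353 to 120816532 was at -0.35, -1.22, -1.06 and -0.71 and 120817071 to 120817310 at -0.03, 2.42, 0.78 and 1.28. PSMD9, another base chaperone, was also below 0 in all 4, at -0.27, -0.70, -0.75 and -0.62 (FDR of 0.389 or more), in a region with a fold enrichment of 6.68, 6.76, 5.32 and 6.61 in the authors' deposited tables (chromosome 12, 121916398 to 121917116). PSMD9 was named after its values were seen, and its region was enriched in the sgMETTL16-1 tables alone. The other PSMD9 region listed in all 4 of the authors' deposited tables (121888761 to 121916368), never enriched, lay mostly above 0, at 0.14 and -0.03, then 0.71, then 0.81, then 0.35 and 0.27. PSMG1 was at -0.14, 0.00, -0.19 and -0.15 in the authors' deposited tables (chromosome 21, 39180392 to 39183455).

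PSME1, the alpha subunit of the 11S activator, was the only proteasome gene called higher in more than 1 table. Its region in the middle of the gene (chromosome 14, 24137349 to 24138090) was enriched in all 4 of the authors' deposited tables, at 1.30, 1.36, 1.33 and 1.27. The authors' deposited tables gave log2 fold changes of -0.01 (FDR = 0.655), 0.66 (FDR = 1.55e-08), 0.10 (FDR = 0.659) and 0.51 (FDR = 5.50e-05). The 2 replicate 2 windows were identical in span (24137349 to 24137750, 180 bases in 3 blocks), and both stand above the 2 replicate 1 values. After the shift the calls stood at 0.53 (FDR = 1.32e-04) with sgMETTL16-1 and 0.37 (FDR = 0.0535, no longer called) with sgMETTL16-2. Further 3′, a region of PSME1 that was not enriched (24138228 to 24138788) lay below 0, at -0.47 (FDR = 0.239) with sgMETTL16-1 in replicate 1 and at -0.44 (FDR = 0.0977) and -0.18 (FDR = 0.650) with sgMETTL16-2 in the authors' deposited tables. Its window in sgMETTL16-2 replicate 1 was called lower after the shift, at -0.57 (FDR = 0.0405), so the gene's regions did not move one way. PSME4, a large activator linked to histone turnover, was enriched in every table near its 3′ end (chromosome 2, 53864846 to 53865325) and stayed near 0, at 0.06, 0.22, -0.04 and 0.00 in the authors' deposited tables. PSME3, the nuclear activator, was at -0.13, 0.28, 0.02 and 0.25 (chromosome 17, 42843073 to 42843372), and PSME2, the partner of PSME1, was never enriched. PSMF1, the inhibitor, had 9 to 14 windows per table and 1 enriched window in all, at 0.68 (FDR = 0.679) with a fold enrichment of 11.6 in the authors' deposited table of sgMETTL16-2 replicate 2.

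Among the names that are not proteasome proteins, PSMB8-AS1 was called lower once. It runs opposite PSMB8 and TAP1 on chromosome 6, and at its 3′ end (32845662 to 32846500) the authors' deposited tables gave -0.48 (FDR = 0.179) and -0.79 (FDR = 0.00776) in replicate 1. The replicate 2 tables split this region into 2 windows each, at -0.34 and 0.41 with sgMETTL16-1 and -0.27 and 0.31 with sgMETTL16-2, of which only the negative ones were enriched. The called window shares no base with a listed window of another gene. In the replicate 2 tables the PSMB8-AS1 windows at -0.34 and -0.27 share 94 and 100 bases with TAP1 windows at -0.03 and -0.32. The libraries kept strand, per the labels' protocols, but whether the counting used it is not given in the sources used here, so reads of these overlapping genes may not be told apart. Of all proteasome windows 5, 6, 5 and 8 share bases with a gene outside the set, none of them called. PSMD5-AS1 was at -0.92, 3.29, 0.29 and 0.88 in its window matched in all 4 of the authors' deposited tables, with FDRs of 0.427 or more.

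**Figure D3:**
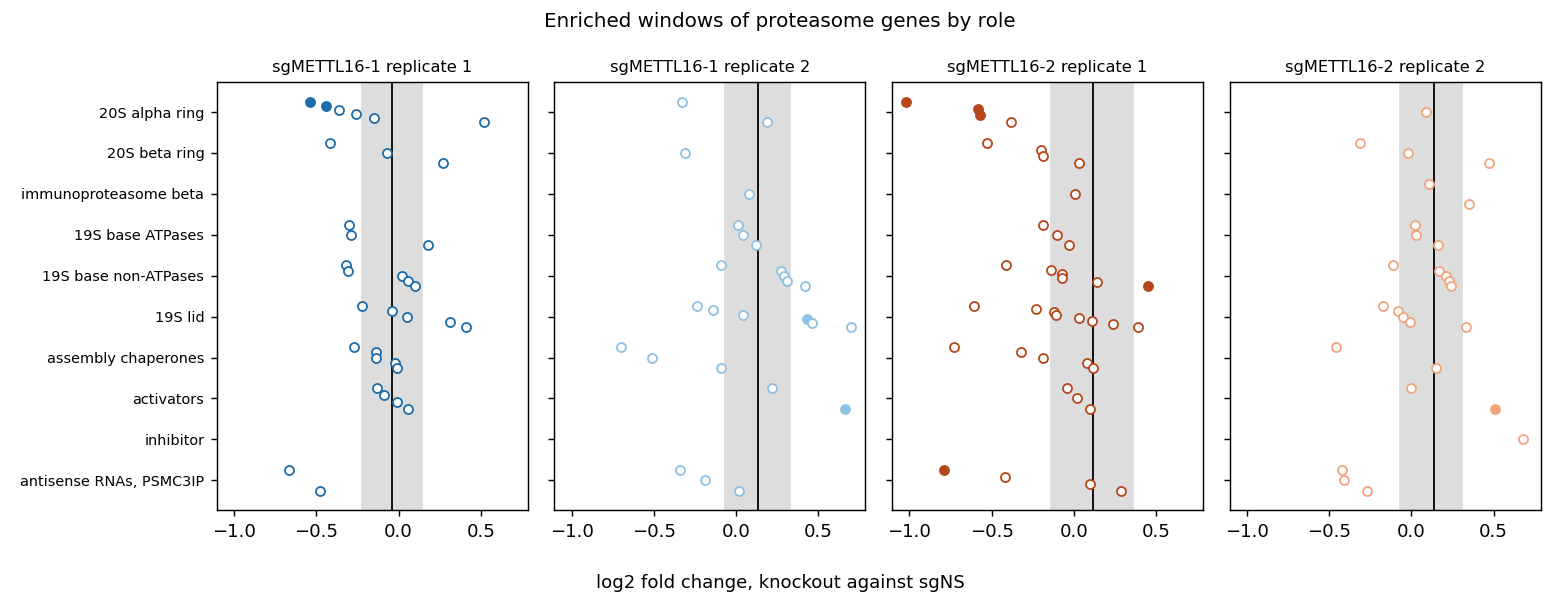
Log2 fold change (x axis) of every enriched window of proteasome genes in each of the authors' 4 deposited tables, by role (rows); filled points are called, the black line is the median of all enriched windows of that table and the grey band spans their quartiles. Alpha ring points lie mostly left of the band in the replicate 1 tables, and the replicate 2 tables hold 2 and 1 enriched alpha ring windows.

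Over all enriched proteasome windows the median log2 fold change was -0.13, 0.04, -0.11 and 0.03 in the authors' deposited tables, against -0.04, 0.13, 0.12 and 0.14 over all enriched windows. Below 0 were 23 of 33 (69.7% against 56.0% of all enriched windows), 10 of 26 (38.5% against 32.7%), 24 of 38 (63.2% against 36.6%) and 12 of 27 (44.4% against 32.5%). The proteasome median was thus lower than the table's own in each of the 4 tables, which share the sgNS control. The gap between the 2 was smaller in the sgMETTL16-1 tables than in the sgMETTL16-2 replicate 1 table. Counted with 1 mean per gene over all its windows, the median was -0.07, -0.03, -0.24 and 0.02, against 0.00, 0.00, -0.03 and 0.00 over all genes. That gap was largest in the sgMETTL16-2 replicate 1 table and turned in the sgMETTL16-2 replicate 2 table.

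Enriched proteasome windows lay near annotated gene ends more often than enriched windows at large, most clearly at the 3′ end. Gene length was not taken into account. Within 1000 bases of the annotated 3′ end lay 18 (54.5%), 12 (46.2%), 19 of 38 and 12 (44.4%) of them in the authors' deposited tables, against 35.4%, 31.0%, 32.8% and 30.9% of all enriched windows. Within 1000 bases of the 5′ end lay 6 (18.2%), 5 (19.2%), 11 (28.9%) and 8 (29.6%), against 14.4%, 15.9%, 17.1% and 17.3%. Windows near the 3′ end had median log2 fold changes of -0.18, -0.04, -0.04 and -0.03 in the authors' deposited tables, against -0.04, 0.12, 0.10 and 0.14 for all enriched windows there. Near the 5′ end the medians were -0.06, 0.42, -0.19 and 0.17, against -0.06, 0.16, 0.16 and 0.18, and so did not keep to one side. Of the 15 called windows, 12 were joined from more than 1 block, as were 40.1%, 31.8%, 37.2% and 33.1% of all proteasome windows and 28.2%, 29.5%, 27.7% and 29.8% of all windows in the authors' deposited tables.

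**Figure D4:**
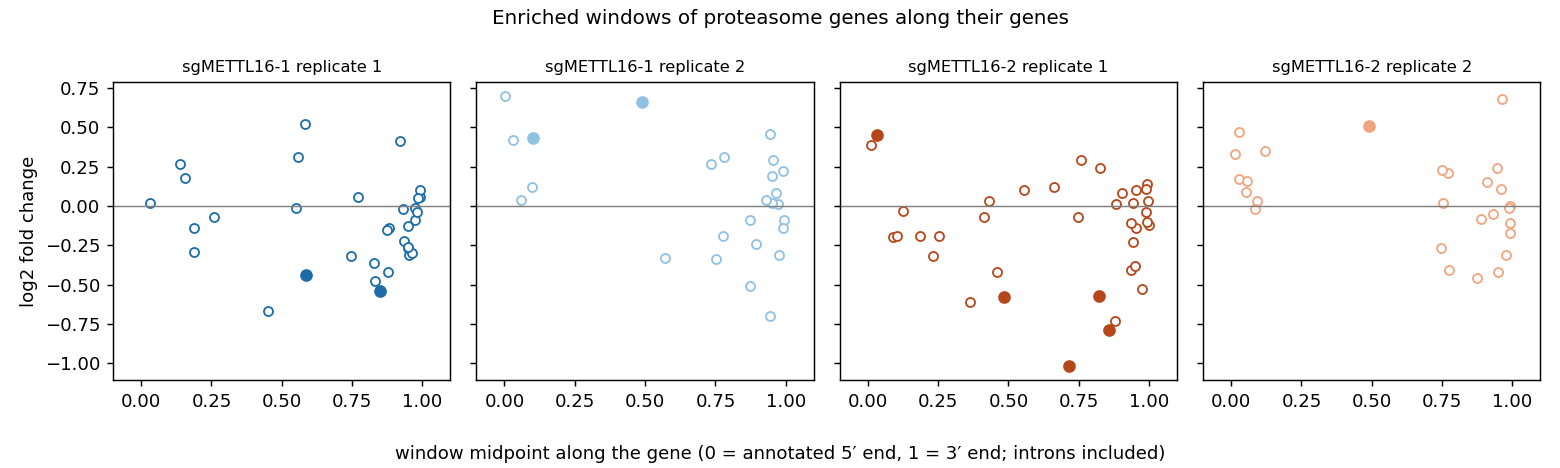
Log2 fold change (y axis) of enriched proteasome windows against the position of the window's midpoint along its gene (x axis, 0 the annotated 5′ end and 1 the 3′ end, introns included) in each of the authors' 4 deposited tables; filled points are called. Points gather at the 3′ end, and the called higher points of PSMD3 and PSMD2 sit near the 5′ end.

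Genes that work with the proteasome were listed for comparison. Of 26 regulators and partners, 23 or 24 had windows, 139, 103, 120 and 101 per table. In the authors' deposited tables of sgMETTL16-1, VCP, the ATPase that extracts ubiquitinated proteins, was higher at 0.75 (FDR = 5.37e-04) in replicate 1, and NFE2L1, the transcription factor of proteasome genes, was higher at 0.32 (FDR = 0.0123) in replicate 2. In the authors' deposited table of sgMETTL16-2 replicate 1, NGLY1, which activates NFE2L1, was called at -1.43, the shuttle RAD23B at -0.74 and SHFM1 at -0.35. In the same table VCP was called at 0.69 and ZFAND2B at 0.72, and in replicate 2 of that guide 0 of the list's windows were called. The called NGLY1 and RAD23B windows were not enriched (FDR of IP over input 0.899 and 0.0813). An enriched NGLY1 window over the same stretch in sgMETTL16-1 replicate 1 was at -0.35 (FDR = 0.655). As shares of the list's windows, the lower calls were 0, 0, 2.50% and 0 against 0.281%, 0.167%, 0.965% and 0.149% of all windows, and the higher ones 0.719%, 0.971%, 1.67% and 0 against 0.0743%, 0.583%, 0.875% and 0.586%. SHFM1 is an older symbol of SEM1, a small lid subunit that the name rule does not take in. The VCP calls lie in 2 separate windows of the gene, and both calls are from replicate 1. With sgMETTL16-2 the same VCP window (chromosome 9, 35062036 to 35062234) was at 0.11 (FDR = 0.650) in the authors' deposited table of replicate 2. The ZFAND2B window was at -0.11 over the same span in sgMETTL16-1 replicate 2. A ZFAND2B window ending at the same base was at -0.20 in sgMETTL16-2 replicate 2. The NFE2L1 window was at -0.17 over the same span in sgMETTL16-1 replicate 1. Within that span NFE2L1 was at 0.16 and 0.10 in sgMETTL16-2 replicate 1 and at -0.12 and 0.24 in its replicate 2, with no call.

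Among the genes listed for ubiquitin and its conjugation, RPS27A, a fusion of ubiquitin with a ribosomal protein, was called lower in the authors' deposited table of sgMETTL16-1 replicate 2 at -0.33 (FDR = 0.0389). The ubiquitin-conjugating enzyme UBE2D3 was called higher at 0.72 near its 5′ end in sgMETTL16-1 replicate 2 and lower at -1.49 in a window further 3′ in sgMETTL16-2 replicate 1 of the authors' deposited tables. The lower UBE2D3 window was not enriched (FDR of IP over input 0.0741). RPS27A and UBE2D3 were thus each called in replicate 2 of sgMETTL16-1, in opposite directions.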

How the data were processed

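STAR and the build GRCh38 are named in the submitters' processing notes. The aligner's version, the peak caller and the gene annotation are not given in sources used for this text. Per the file headers, the authors deposited for each window a p-value of IP over input, scores that hold the log10 of that p-value, of its FDR and of the p-value of the difference, a fold enrichment ratio, the log10 of the FDR of the difference, and a log2 fold change. The tables hold no value per library, so depth and its effect on precision are unknown. Each table's number was taken as a replicate number.

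From these values, windows were counted, joined into regions (at least 1 shared base) and matched between tables of a guide (same gene and strand, at least 0.5 of the bases of each) with Python 3.11.15 and pandas 2.3.3. Gene ends came from RefSeq. Medians and shares are descriptions set beside all windows. In windows with an FDR of IP over input under 1e-10, the highest deposited p-value of the difference was 0.514 to 0.537, as a one-sided test gives. For the shift, the median of a table's enriched windows was subtracted and a two-sided p recomputed with a standard error from the deposited p-value, then adjusted by Benjamini-Hochberg over the table. Matching was checked on simulated data. Named were all genes with a call, and in each role class up to 3 with the highest mean fold enrichment in their most enriched window matched in all tables. Further genes, among them PSMB8, PSMC2, PSMC4, PSMD1, PSMD7, PSMD9, PSMD14 and PSMF1, were named outside this rule. The members, lists and rules were chosen with earlier results of these data known. Window sequences and exons were not used here. Some genes of the marker, ubiquitin and antigen presentation lists are not reported here, and so the counts of calls over the latter 2 lists are not given.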

Additional observations from a re-analysis of the deposited data

How the results depend on the processing

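No paired analysis was possible because the deposited tables hold no value per library. Counts are of called proteasome windows. With an FDR of 0.01, 1 window stayed higher in sgMETTL16-1 replicate 2, 4 lower and 0 higher in sgMETTL16-2 replicate 1, and 0 lower in sgMETTL16-2 replicate 2. With a log2 fold change of 1 or more in size, 1 lower window stayed in sgMETTL16-2 replicate 1 and 0 in every other count that had been above 0. Restricted to windows with a fold enrichment of 2 or more, the counts were 1 higher in sgMETTL16-1 replicate 2, 2 lower and 0 higher in sgMETTL16-2 replicate 1, and 0 and 0 in its replicate 2. Among enriched windows alone, 4 lower windows on 3 genes stayed in sgMETTL16-2 replicate 1 and 0 in its replicate 2. After the shift by the enriched median 1 higher window stayed in sgMETTL16-1 replicate 2 and 0 in either table of sgMETTL16-2. The shift added lower calls: they rose from 7 to 10 in sgMETTL16-2 replicate 1, gaining 2 windows of PSMD6 and 1 of PSME1, while 2 of 3 stayed in sgMETTL16-1 replicate 1 and 1 of 1 in sgMETTL16-2 replicate 2. After it the median of all proteasome windows in sgMETTL16-1 replicate 2 became -0.13. Calls by gene followed the same numbers except where given. Taking 1 table of a guide in place of both, without replicate 1 or 2, the matched windows called ranged from 0 to 1 higher for sgMETTL16-1, from 0 to 1 lower for sgMETTL16-2 and from 1 to 1 higher for sgMETTL16-2. With an FDR of IP over input of 0.01, 10.1%, 10.8% and 12.8% of windows were enriched in the first 3 tables, and with a fold enrichment of 2 or more added to the main FDR, 3.38%, 5.41%, 4.08% and 4.38%. The cause was not tested for any of these; stricter thresholds leave fewer windows by construction. Of 188 alternative values, 51 moved past the spread or by over 1.5 times and 137 did not. Of the 20 alternatives for a median, 2 had the opposite sign to the main value: the median in sgMETTL16-2 replicate 2 went from 0.02 to -0.12 after the shift, and the mean of both sgMETTL16-2 medians from -0.09 to 0.02 without replicate 1. The adjusted one-sided p and the removal of windows shared with other genes were chosen after seeing the data.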

Other observations

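Class I antigen presentation uses the peptides that the immunoproteasome cuts. Among the genes listed for it, B2M, the light chain of class I molecules, was called lower in all 4 tables. Its called windows were at -0.23 (FDR = 1.26e-18) and -0.36 (FDR = 0.0195) with sgMETTL16-1 in the authors' deposited tables. Those of sgMETTL16-2 gave -0.53 (FDR = 6.31e-73) and -0.26 (FDR = 2.24e-04). A second enriched B2M window in sgMETTL16-1 replicate 2, at -0.31 (FDR = 0.159), was not called. Of all genes, 1.39%, 0.760%, 4.17% and 0.682% were called lower. HLA-C, a class I heavy chain, was called higher over its 5′ part at 0.20 (FDR = 7.59e-08) with sgMETTL16-1 in replicate 2 and at 0.27 (FDR = 1.00e-13) and 0.16 (FDR = 1.26e-05) with sgMETTL16-2 in the authors' deposited tables. In sgMETTL16-1 replicate 1 that HLA-C window was at 0.04 (FDR = 0.655), and its 3′ window was called in none of the 4 tables. Over all enriched windows, the median was 0.13 with sgMETTL16-1 in replicate 2 and 0.12 and 0.14 with sgMETTL16-2. The called HLA-C values stand above these medians, least so in the last, and were not shifted by them. HLA-C has near-identical paralogs over long stretches, so how reads were divided among them is uncertain. The difference between these genes and the proteasome genes was not tested.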
